A study of Danio rerio with 12 samples.

Results

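The vacuolar H+-ATPase (V-ATPase) and its lysosomal partners were followed here through 41 genes of zebrafish white muscle. They were chosen by name and by a minimum of reads. The names were those of V-ATPase subunits (atp6v), V-ATPase accessory proteins (atp6ap), lysosome-associated membrane proteins (lamp), mucolipins (mcoln) and cathepsins (cts). A gene was kept if at least 10 reads were counted in at least 3 of the 12 libraries. Of 56 listed genes with such names 41 passed, as did 16056 of the 31962 genes listed in all. The minimum used the counts themselves and no comparison between groups.

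The V-ATPase is a rotary proton pump. Its cytosolic V1 sector hydrolyses ATP and turns a central stalk, and its membrane V0 sector moves protons into the lumen of endosomes and lysosomes. The acid lumen activates the cathepsins, proteases that degrade the cargo of endocytosis and autophagy, while LAMP proteins line the lysosomal membrane and mucolipins release calcium through it. In muscle this system clears damaged organelles and proteins. Macrophages, which may lie between the fibers, are also rich in lysosomes.

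RNA of white muscle was sequenced from 4 groups of 3 fish. The exercised Gr mutants swam against a flow of 0.4 m/s for 6 h a day, 5 days a week, during 4 weeks, and the non-exercised Gr mutants were kept at 0.1 m/s. Exercised and non-exercised wild-type fish were handled in the same way. The mutants carried the gr s357 allele, a point mutation of the glucocorticoid receptor (Gr), the receptor of cortisol, that lies where the protein binds DNA. Wild-type fish were 3 months old when delivered, and no age was stated for the mutants. The mutant line came from another laboratory than the wild-type fish, so strain background and mutation cannot be told apart. One tunnel held each exercise group, so tunnel and exercise cannot be told apart either. Each library came from one fish according to the methods, and p-values measure the spread between these fish.

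The libraries held 7688323 to 12315951 reads on genes in exercised Gr mutants, 12126957 to 13894240 in non-exercised Gr mutants, 12038120 to 12936797 in exercised wild-type fish and 11076993 to 13807501 in non-exercised wild-type fish. Fast muscle markers were all 22 past the read minimum and took 16.8% to 35.7% of the scaled reads, as the label of white muscle has it. Several libraries stood apart in markers of other cells. The myeloid markers, which include those of macrophages, summed to 1550 and 2093 CPM (read counts scaled to a common library size) in replicates 1 and 2 of the non-exercised Gr mutants, and to 369 in replicate 3. They ranged over 384 to 792 CPM in exercised Gr mutants, 259 to 570 in exercised wild-type fish and 235 to 397 in non-exercised wild-type fish. Neutrophil markers reached 769 CPM in non-exercised Gr mutant replicate 1, against 24.1 to 57.6 CPM in the other libraries. Oocyte markers reached 274 CPM in exercised Gr mutant replicate 3 and 25.4 CPM in non-exercised wild-type replicate 2, and erythrocyte markers 3266 CPM in exercised wild-type replicate 2. In such bulk samples, fewer cells of a type and less RNA per cell cannot be told apart.

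The 41 genes comprised 12 of 14 listed V1 subunit genes, 7 of 10 V0 genes, 3 of 5 accessory genes, 3 of 4 LAMP genes, 3 of 4 mucolipins and 13 of 19 cathepsins. The 15 genes below the minimum included the V0 genes ATP6V0A4, atp6v0a1b and atp6v0a2a, the V1 gene atp6v1c2, ATP6AP1L (2 of 2), LAMP5, MCOLN2 and the cathepsin genes ctsbb, ctsl.1, ctsll, ctssa and both identifiers named ctslb. Just inside lay ctskl and mcoln1b, with 10 or more reads in 4 libraries, and atp6v1c1b in 6 libraries. Just outside, in 2 libraries, lay a gene listed as atp6v1e1a under a further identifier (ENSDARG00000003635) and ATP6AP1L (1 of 2). The first of these is called mogat3b in the table of current gene names. Cathepsins took 59.9% of the CPM of the 41 genes, and ctsd and ctsba alone took 17.8% and 15.1% of their reads. Gene lengths were not used, so these shares are of reads and not of transcripts.

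Exercised Gr mutants had the lowest levels. Summed over the 41 genes, the level was 599, 554 and 516 CPM in exercised Gr mutants, 1006, 1041 and 596 in non-exercised Gr mutants, 779, 930 and 935 in exercised wild-type fish and 776, 625 and 857 in non-exercised wild-type fish. The exercised mutants lay below every wild-type library and nearly level with non-exercised mutant replicate 3. Their group mean was the lowest of the 4 in 28 of the 41 genes (68.3%), against 25.1% of all 16056 genes past the minimum. Non-exercised Gr mutants had the highest group mean in 20 genes (48.8%), against 28.4% of all genes, and exercised wild-type fish in 15 genes (36.6%), against 22.1%. The map of levels by library shows both the low columns of the exercised mutants and the split within the non-exercised mutants. The libraries also differed in how much their 10 most read genes took. That share was 40.4%, 44.9% and 46.1% of reads in exercised Gr mutants and 42.0% in non-exercised Gr mutant replicate 3. In the other libraries it was 31.1% to 39.6%. Its part in the low sums was not tested.

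**Figure D1:**
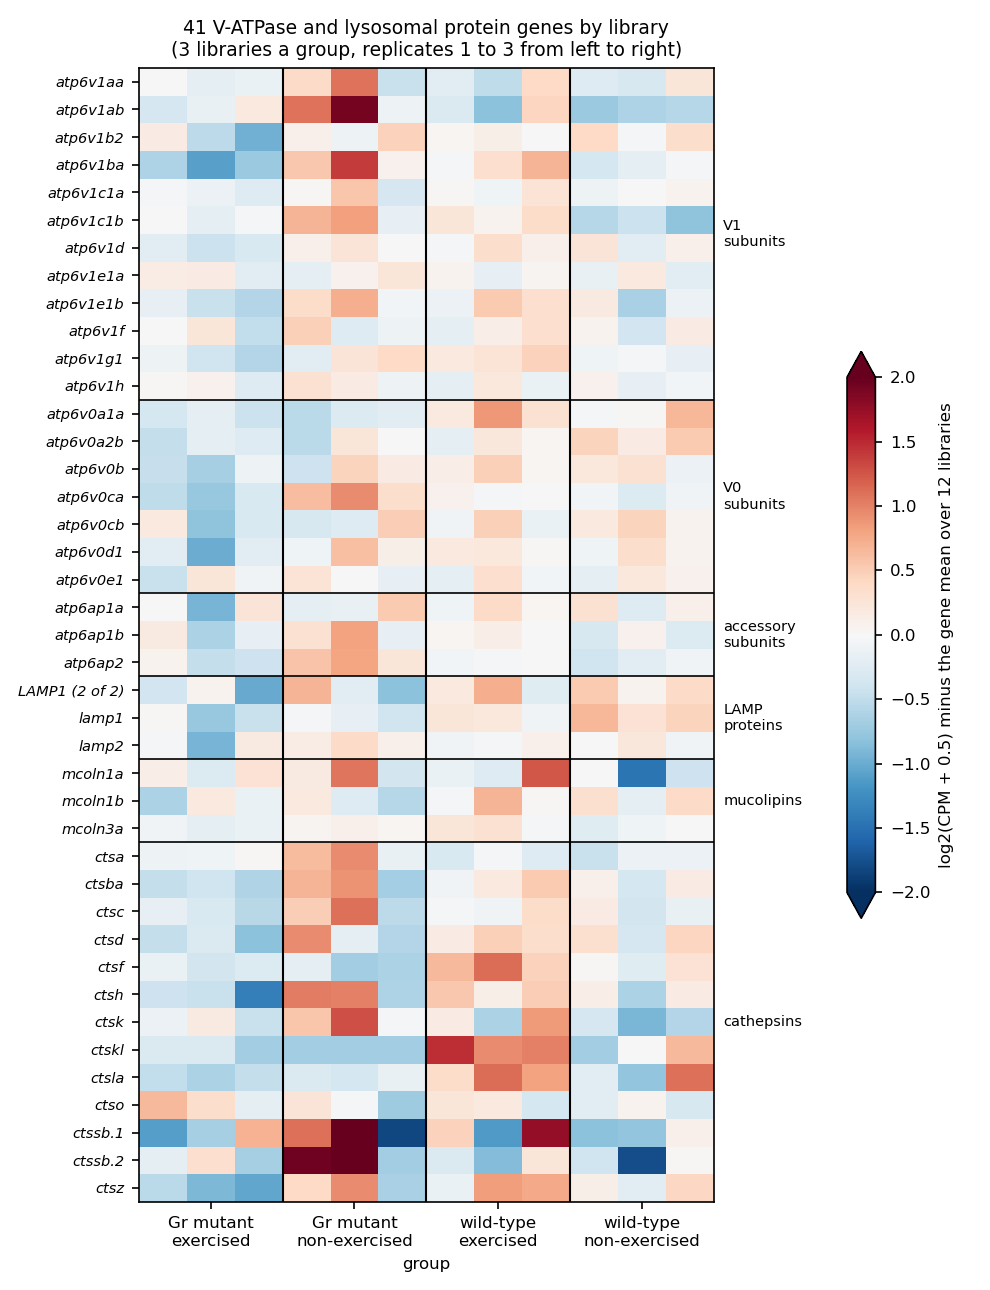
Levels of the 41 genes (rows, by role) in the 12 libraries (columns, by group), as log2(CPM + 0.5) minus the mean of the gene over the 12 libraries, red above and blue below that mean. Exercised Gr mutants are mostly blue, while replicates 1 and 2 of the non-exercised Gr mutants hold the highest value of 22 of the 41 genes (53.7%), against 23.4% of all genes past the minimum. Replicate 2 holds 18 of these (43.9%, against 13.1% of all genes) and replicate 1 holds 4 (9.76%, against 10.3%).

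Exercised Gr mutants were first compared with exercised wild-type fish. Of 40 genes tested (mcoln1b did not reach the minimum in these libraries), 5 fell in the mutants at an adjusted p under 0.05 and 0 rose (edgeR quasi-likelihood test with Benjamini-Hochberg adjustment over all genes, called edgeR below). That is 12.5%, against 3.02% of all 14106 genes tested and 2.37% called lower. The 5 were the cathepsins ctsla, ctsz, ctsf and ctskl and the V1 gene atp6v1ba. Because ctskl reached the minimum only through the exercised wild-type libraries, it had to differ and its fold change is a description, which leaves 4 called genes. Altogether 35 of the 40 genes were lower in the mutants, against 50.6% of all genes, with a median log2 fold change of -0.47 against -0.01 over all genes. At an unadjusted p under 0.05, 15 genes were lower and 0 higher, against 11.6% and 7.88% of all genes. The groups did not overlap in 18 genes, all lower in the mutants, or 45%, against 25.4% of all genes in either direction and 12.8% lower. The 12.5%, the 15 and the 18 all include ctskl. The 18 also include atp6v1c1b, which passed the minimum mainly through the exercised wild-type libraries, with 18, 11 and 19 reads against 12, 5 and 7 in mutants. Each call rested on few fish. Of 6 omissions of one library, the call of ctsla held in 2, those of ctsz and ctsf in 1 each and that of atp6v1ba in 0. Left without exercised wild-type replicate 1 or 3, the comparison called 2 genes, and without exercised wild-type replicate 2 or any of the 3 mutant libraries 0. Over all genes these omissions called 6 to 508, against 426 with all libraries of the comparison. A fit over all 12 libraries called 0 of the members and 267 genes in all.

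Other markers differed between the same libraries. The fibroblast and connective tissue markers were higher in exercised Gr mutants in all 11 genes tested, 2 of them called by edgeR and 6 by DESeq2. They summed to 7429 to 9917 CPM in exercised Gr mutants and 3865 to 4957 CPM in exercised wild-type fish. Erythrocyte markers were lower in 11 of 11, 8 of them at an unadjusted p under 0.05, 1 called by edgeR and 2 by DESeq2. Their sum was 387 to 442 CPM in exercised Gr mutants and 291 to 3266 CPM in exercised wild-type fish. Myeloid markers were higher in 14 and lower in 14 of 28 genes tested, and 0 of the 28 were called by edgeR or DESeq2, with 1 higher and 2 lower at an unadjusted p under 0.05. Fast muscle markers were higher in mutants in 15 of 20 genes, 2 of them called, and lower in 5, 2 of them called (edgeR). DESeq2 called 7 higher and 2 lower. Their sum was 259627 to 356643 CPM in exercised Gr mutants and 168399 to 271909 CPM in exercised wild-type fish. Over all genes edgeR called 426 here and DESeq2 944. Slow muscle markers were lower in 8 of 11. The part of these markers in the lower lysosomal genes was not tested.

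**Figure D2:**
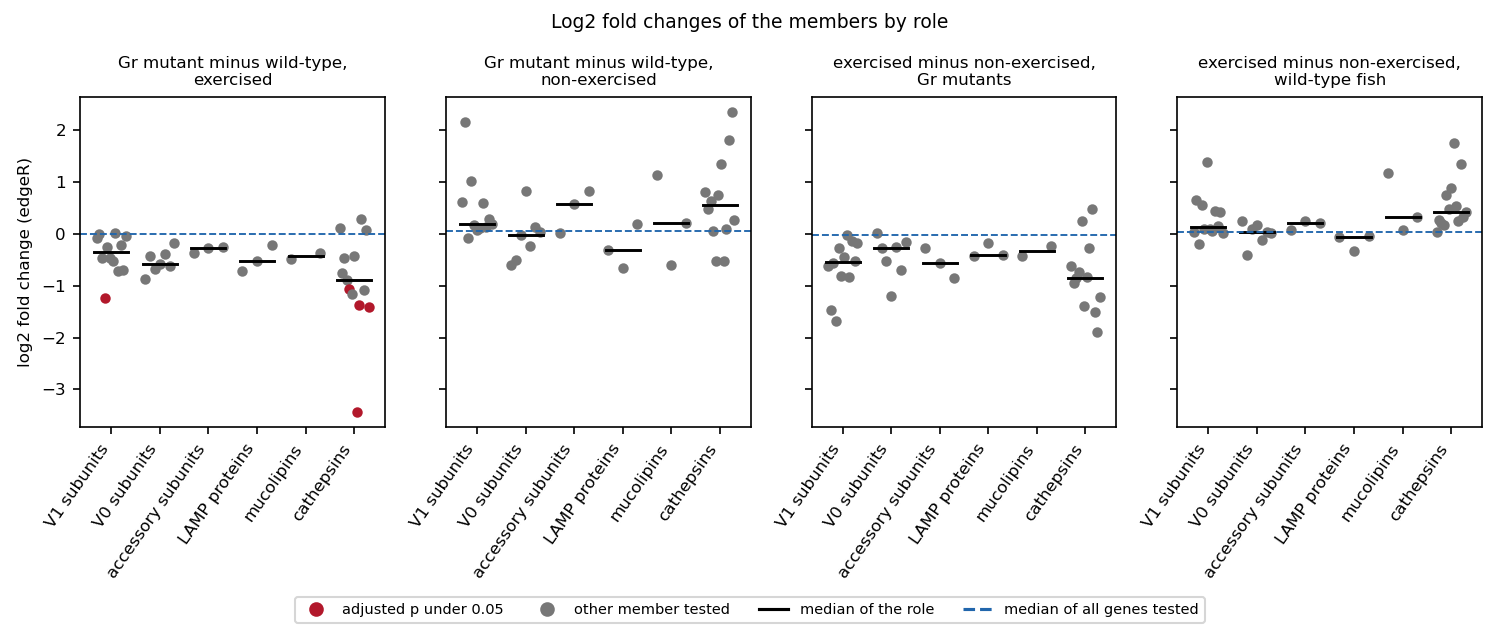
Log2 fold changes of the genes tested, by role, in the 4 pairwise comparisons. Points are genes, red where the adjusted p was under 0.05, black bars are medians of a role and dashed lines the median of all genes tested. With exercise, Gr mutants lay below wild-type fish in all V0, accessory, LAMP and mucolipin genes tested, in 10 of 12 V1 genes and in 10 of 13 cathepsins.

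Over both exercise levels, 4 of 41 genes (9.76%) fell in Gr mutants and 0 rose, against 7.93% of all 16056 genes called in either direction and 4.63% called lower. This share lies near the background. The 4 were ctsf, the V0 gene atp6v0a1a, lamp1 and ctskl. Again ctskl passed the minimum only through wild-type libraries, so it had to differ, and the share without it is smaller. The median log2 fold change of the 41 genes was -0.06, against 0.06 over all genes. Mutant and wild-type libraries did not overlap in 1 gene, atp6v0a1a, against 3.69% of all genes. Myeloid markers were higher in mutants in 30 of 30 genes tested, 2 of them called by edgeR and 7 by DESeq2, and fibroblast and connective tissue markers in 11 of 11, 5 of them called by edgeR and 9 by DESeq2. Of 22 fast muscle markers 3 were called higher and 2 lower (edgeR). In this comparison edgeR called 1274 genes in all and DESeq2 2128. The part of these markers in the lysosomal values was not tested. The call of ctsf held in 12 of 12 omissions of one library, that of atp6v0a1a in 8 and that of lamp1 in 3. The ctskl call stayed in all 12 too, but the minimum had set its direction. Without exercised wild-type replicate 2, exercised Gr mutant replicate 3 or non-exercised wild-type replicate 3, only ctsf and ctskl were called. Over all genes these omissions called 639, 785 and 685. Non-exercised Gr mutant replicates 1 and 2, which had the most myeloid marker reads, also held the highest value of 22 of the 41 genes (53.7%), against 23.4% of all genes. Most of these lay in replicate 2, with 18 (43.9%, against 13.1% of all genes), while replicate 1 held 4 (9.76%, against 10.3%). Leaving both out was a choice made after seeing the data and itself lowers the mutant values of those genes, so the values that follow are a description. In that fit 34 of 41 genes were lower in mutants, at a median of -0.27 against 0.01 over all genes.

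In the V1 sector, subunit B forms together with A the ring that binds and splits ATP. The B gene atp6v1ba had 5.93, 4.12 and 5.41 CPM in exercised Gr mutants, 13.8, 25.5 and 9.88 in non-exercised Gr mutants, 9.06, 11.9 and 15.2 in exercised wild-type fish and 7.23, 8.12 and 9.20 in non-exercised wild-type fish. Exercised mutants lay below all 9 other libraries, and non-exercised mutants above all 3 non-exercised wild-type libraries. With exercise, atp6v1ba was lower in Gr mutants than in wild-type fish by a log2 fold change of -1.25 ± 0.26 (SE; edgeR adjusted p = 0.0439). The other B gene, atp6v1b2, had 7.005, 4.12 and 2.91 CPM in exercised Gr mutants, 6.62, 5.73 and 8.68 in non-exercised Gr mutants, 6.37, 6.71 and 6.23 in exercised wild-type fish and 8.25, 5.96 and 8.01 in non-exercised wild-type fish, with overlapping ranges and a log2 fold change of -0.47 ± 0.31 (edgeR adjusted p = 0.459).

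The A subunit is encoded by atp6v1aa and atp6v1ab. For atp6v1aa the levels were 6.10, 5.27 and 5.55 CPM in exercised Gr mutants, 8.10, 13.5 and 4.34 in non-exercised Gr mutants, 5.17, 4.18 and 8.18 in exercised wild-type fish and 5.02, 4.83 and 7.30 in non-exercised wild-type fish. For atp6v1ab they were 1.98, 2.31 and 3.05 CPM in exercised Gr mutants, 6.15, 11.2 and 2.40 in non-exercised Gr mutants, 2.05, 1.26 and 3.68 in exercised wild-type fish and 1.36, 1.54 and 1.60 in non-exercised wild-type fish. Non-exercised mutant replicate 2 was the highest library in both genes. All 3 non-exercised mutants exceeded all 3 non-exercised wild-type fish in atp6v1ab, with a log2 fold change of 2.15 ± 0.52 (edgeR adjusted p = 0.140). Reads on atp6v1aa made up 54.6% to 64.4% of those on the pair in non-exercised Gr mutants, against 75.8% to 82.0% in non-exercised wild-type fish. These shares did not overlap, but the wild-type ones rest on 16, 15 and 27 reads of atp6v1ab. The lowest mutant shares were those of replicates 1 and 2. Shares of some other pairs, such as mcoln1a and mcoln1b, did not overlap there either. Levels of 22.0% of all genes did not overlap between these groups.

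The C subunit holds V1 to V0 and is encoded by atp6v1c1a and atp6v1c1b. The gene atp6v1c1b was sparse, with 12, 5 and 7 reads in exercised Gr mutants, 32, 37 and 9 in non-exercised Gr mutants, 18, 11 and 19 in exercised wild-type fish and 6 in each non-exercised wild-type library. All exercised wild-type libraries exceeded all non-exercised wild-type libraries, a difference fixed by the minimum, which the gene passed there only through the exercised libraries, with a log2 fold change of 1.38 ± 0.40 (edgeR adjusted p = 0.188). Its paralogue atp6v1c1a had 7.50, 6.92 and 6.24 CPM in exercised Gr mutants, 7.74, 11.3 and 5.91 in non-exercised Gr mutants, 7.72, 7.09 and 9.23 in exercised wild-type fish and 7.06, 7.60 and 7.95 in non-exercised wild-type fish, and the wild-type groups overlapped. Among the stalk genes, atp6v1g1, the most read V1 gene, had 20.4, 16.5 and 14.4 CPM in exercised Gr mutants, 18.7, 26.1 and 29.0 in non-exercised Gr mutants, 25.0, 26.4 and 30.2 in exercised wild-type fish and 20.5, 21.2 and 19.4 in non-exercised wild-type fish. The exercised wild-type libraries lay above those of both non-exercised wild-type fish and exercised mutants, with log2 fold changes of 0.42 ± 0.16 for exercise in wild-type fish (edgeR adjusted p = 0.307) and -0.71 ± 0.20 for mutants with exercise (edgeR adjusted p = 0.0959). The remaining V1 genes atp6v1d and atp6v1f (central stalk), atp6v1e1a and atp6v1e1b (outer stalks) and atp6v1h (regulator) varied 1.39-fold to 2.77-fold between the lowest and the highest of the 12 libraries.

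In the V0 sector, subunit a forms the proton channels and steers the pump to its membrane. Its gene atp6v0a1a had 14.01, 15.7 and 13.3 CPM in exercised Gr mutants, 12.4, 14.8 and 15.4 in non-exercised Gr mutants, 20.8, 33.5 and 22.4 in exercised wild-type fish and 17.5, 18.4 and 29.0 in non-exercised wild-type fish. All 6 mutant libraries lay below all 6 wild-type libraries, and the log2 fold change over both exercise levels was -0.72 ± 0.17 (edgeR adjusted p = 0.0257). The a2 gene atp6v0a2b had a log2 fold change of -0.46 ± 0.19 in the same fit without reaching the threshold (edgeR adjusted p = 0.152). Its levels were 2.31, 2.97 and 2.77 CPM in exercised Gr mutants, 2.19, 4.11 and 3.42 in non-exercised Gr mutants, 2.90, 4.08 and 3.53 in exercised wild-type fish and 4.85, 3.91 and 5.10 in non-exercised wild-type fish, with overlap between mutants and wild-type fish at both exercise levels.

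The c subunits form the rotating proton ring. The gene atp6v0ca had 13.4, 11.2 and 15.5 CPM in exercised Gr mutants, 29.9, 37.6 and 24.8 in non-exercised Gr mutants, 20.6, 18.9 and 19.4 in exercised wild-type fish and 18.5, 15.9 and 18.3 in non-exercised wild-type fish. The 4 groups did not overlap. Exercised mutants were below, and non-exercised mutants above, every wild-type library. The log2 fold change of exercise in mutants was -1.21 ± 0.27 (edgeR adjusted p = 0.352), and in wild-type fish 0.16 ± 0.16 (edgeR adjusted p = 0.700). Its near copy atp6v0cb showed no such order, with 16.6, 8.08 and 11.6 CPM in exercised Gr mutants, 11.4, 11.9 and 20.5 in non-exercised Gr mutants, 13.7, 20.3 and 13.1 in exercised wild-type fish and 16.6, 19.8 and 15.2 in non-exercised wild-type fish. Reads of 50 nucleotides could be shared between such copies. The ring gene atp6v0b, the d subunit gene atp6v0d1, which couples ring and stalk, and the small atp6v0e1 had log2 fold changes of -0.68 ± 0.23, -0.63 ± 0.26 and -0.18 ± 0.30 in mutants against wild-type fish with exercise, none past the threshold.

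Of the accessory proteins, ATP6AP2, which takes part in pump assembly and is also known as the prorenin receptor, was the most read. Its gene atp6ap2 had 10.6, 7.09 and 7.49 CPM in exercised Gr mutants, 15.2, 17.9 and 12.1 in non-exercised Gr mutants, 9.70, 9.91 and 10.1 in exercised wild-type fish and 7.57, 8.53 and 9.61 in non-exercised wild-type fish. All 3 non-exercised mutants exceeded the other 9 libraries. The log2 fold change between the mutants and wild-type fish without exercise was 0.83 ± 0.25 (edgeR adjusted p = 0.172), and that of exercise in mutants was -0.85 ± 0.28 (edgeR adjusted p = 0.442). The ATP6AP1 genes atp6ap1b and atp6ap1a reached 4.45 to 12.9 and 0.330 to 1.75 CPM over the 12 libraries.

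LAMP1 is a heavily glycosylated coat protein of the lysosomal membrane. For lamp1 the levels were 38.9, 22.3 and 27.7 CPM in exercised Gr mutants, 37.3, 33.8 and 28.6 in non-exercised Gr mutants, 45.3, 44.1 and 36.3 in exercised wild-type fish and 60.7, 46.7 and 51.7 in non-exercised wild-type fish. Non-exercised mutants lay below non-exercised wild-type fish without overlap, while the exercised groups overlapped in mutant replicate 1. Over both exercise levels the log2 fold change was -0.59 ± 0.16 (edgeR adjusted p = 0.0418). The other LAMP1 gene, listed as LAMP1 (2 of 2), had 9.64, 13.4 and 6.10 CPM in exercised Gr mutants, 20.6, 10.9 and 7.02 in non-exercised Gr mutants, 14.7, 21.3 and 10.7 in exercised wild-type fish and 18.5, 13.4 and 16.7 in non-exercised wild-type fish, and its mutant and wild-type ranges overlapped at both exercise levels. The related lamp2, which serves in autophagosome fusion, averaged 22.5 ± 8.30 CPM in exercised and 29.8 ± 3.32 CPM in non-exercised Gr mutants, against 25.6 ± 1.58 CPM in exercised and 26.5 ± 3.01 CPM in non-exercised wild-type fish (SD, n = 3 each).

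Mucolipins are calcium channels of endosomes and lysosomes. The most read one, mcoln3a, had 3.63, 3.30 and 3.47 CPM in exercised Gr mutants, 4.02, 4.17 and 3.97 in non-exercised Gr mutants, 4.60, 4.86 and 3.75 in exercised wild-type fish and 3.15, 3.60 and 3.80 in non-exercised wild-type fish, a range of 1.54-fold over the 12 libraries. Without exercise all 3 mutants lay above all 3 wild-type fish, and with exercise all 3 lay below, at log2 fold changes of 0.21 ± 0.24 (edgeR adjusted p = 0.699) and -0.38 ± 0.24 (edgeR adjusted p = 0.427). The mucolipin 1 genes mcoln1a and mcoln1b were at 0.514 to 6.08 and 0.247 to 1.36 CPM, and neither was called in any comparison.

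Cathepsins L, F and Z are cysteine proteases, and their genes were called lower in Gr mutants with exercise. The cathepsin L gene ctsla had 29.8, 27.0 and 29.9 CPM in exercised Gr mutants, 34.2, 32.7 and 37.8 in non-exercised Gr mutants, 54.7, 91.4 and 74.1 in exercised wild-type fish and 36.1, 24.1 and 91.1 in non-exercised wild-type fish. Mutant levels were narrow, at 27.0 to 37.8 CPM over 6 libraries, and wild-type levels wide, at 24.1 to 91.4 CPM. The groups were apart with exercise, where ctsla was lower in mutants by a log2 fold change of -1.37 ± 0.22 (edgeR adjusted p = 0.0213). For ctsf the levels were 23.3, 19.8 and 21.1 CPM in exercised Gr mutants, 22.2, 15.7 and 16.3 in non-exercised Gr mutants, 40.5, 56.2 and 35.4 in exercised wild-type fish and 26.0, 21.5 and 31.4 in non-exercised wild-type fish. Exercised wild-type fish lay above the other 9 libraries. The log2 fold change of ctsf in mutants was -1.07 ± 0.22 with exercise (edgeR adjusted p = 0.0408) and -0.79 ± 0.18 over both exercise levels (edgeR adjusted p = 0.0185). For exercise in wild-type fish it was 0.74 ± 0.24 (edgeR adjusted p = 0.219).

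Cathepsin Z is a carboxypeptidase. Its gene ctsz had 15.5, 11.9 and 10.8 CPM in exercised Gr mutants, 30.1, 43.9 and 14.2 in non-exercised Gr mutants, 20.7, 40.6 and 38.5 in exercised wild-type fish and 24.7, 19.2 and 30.4 in non-exercised wild-type fish. Exercised mutants lay below the exercised wild-type fish without overlap, at a log2 fold change of -1.41 ± 0.28 (edgeR adjusted p = 0.0402), while the non-exercised groups overlapped. The sparse ctskl, called cts12 in the table of current names, had 2, 1 and 0 reads in exercised Gr mutants, 0 in each non-exercised mutant library, 25, 11 and 15 in exercised wild-type fish and 0, 3 and 13 in non-exercised wild-type fish. Over both exercise levels the level in wild-type fish was 20.7-fold that in mutants (95% counting interval 6.78 to 103), and with exercise 11.4-fold (3.70 to 57.3). Without exercise it was at least 6.27-fold lower in mutants, taking 3 reads over the group as the floor. These intervals cover counting error alone, and 13 of the 16 reads of non-exercised wild-type fish lay in replicate 3, without which both non-exercised groups were at or under the floor. The fitted log2 fold changes by edgeR of -3.43 with exercise and -3.87 over both levels depend on the prior count.

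**Figure D3:**
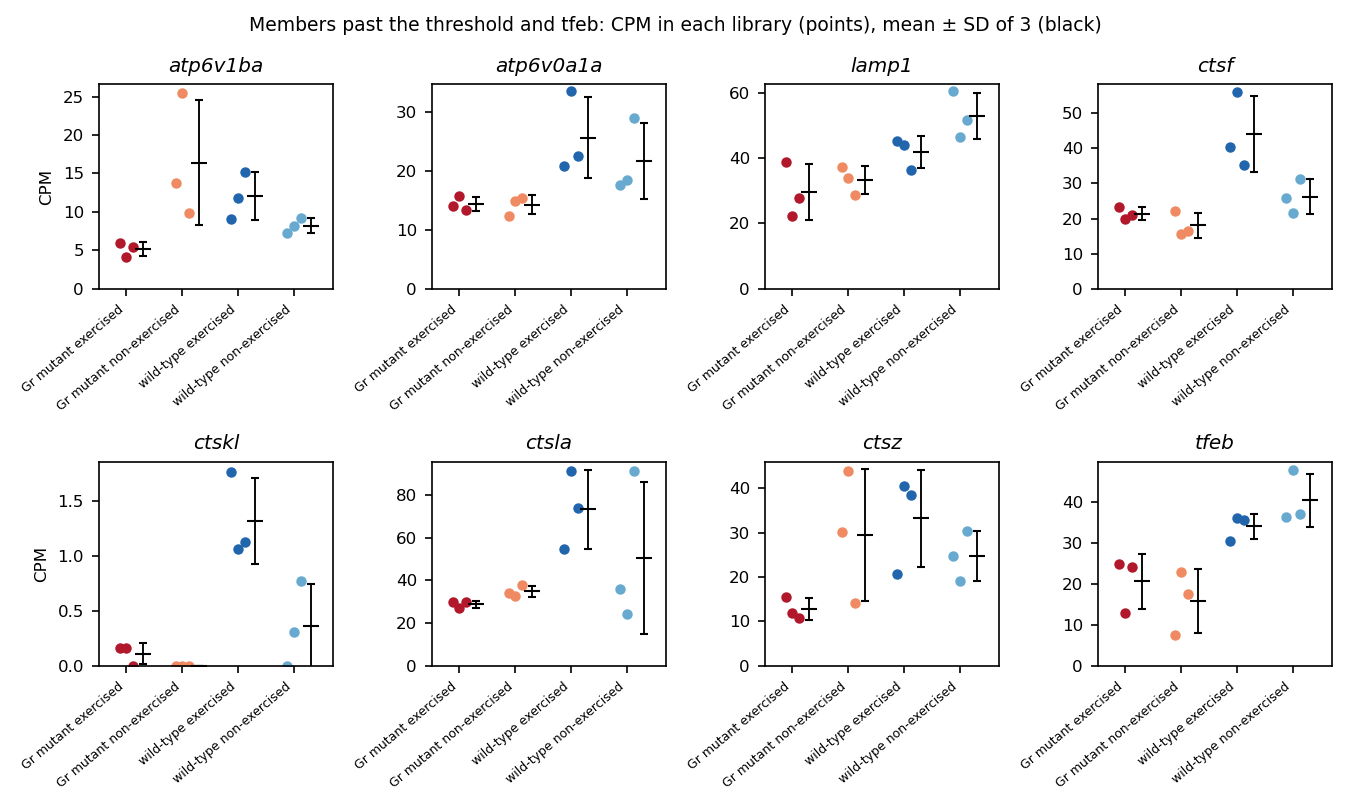
CPM of the 7 genes past the threshold in a comparison of Gr mutants with wild-type fish, and of tfeb, in each of 3 libraries a group (points), with mean and SD beside them (black). Exercised mutants sit below exercised wild-type fish in 6 of the 7 genes, with overlap in lamp1 alone, and all 6 mutant libraries sit below all 6 wild-type libraries in atp6v0a1a and tfeb. The genes are shown because they were called lower in mutants, 5 of the 7 with exercise. These orders are therefore a description. With exercise, 12.8% of all genes were lower in mutants without overlap.

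The 2 most read members, ctsd and ctsba, encode cathepsin D, an aspartic protease, and cathepsin B, a cysteine protease. For ctsd the levels were 91.6, 104 and 72.2 CPM in exercised Gr mutants, 247, 113 and 85.1 in non-exercised Gr mutants, 143, 179 and 163 in exercised wild-type fish and 160, 101 and 173 in non-exercised wild-type fish. For ctsba they were 76.3, 80.9 and 70.6 CPM in exercised Gr mutants, 171, 200 and 66.5 in non-exercised Gr mutants, 102, 123 and 153 in exercised wild-type fish and 114, 83.9 and 120 in non-exercised wild-type fish. In both, exercised mutants lay below exercised wild-type fish, at log2 fold changes of -0.89 ± 0.22 (edgeR adjusted p = 0.0659) and -0.77 ± 0.22 (edgeR adjusted p = 0.0936), which missed the threshold. The aminopeptidase gene ctsh behaved likewise (-1.16 ± 0.29, edgeR adjusted p = 0.0714). In non-exercised mutants ctsd exceeded every wild-type library in replicate 1 alone. The genes ctsh and ctsba were split there. For ctsba replicates 1 and 2 read 171 and 200 CPM, and replicate 3 read 66.5 CPM, below every wild-type library.

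The same split was seen in ctssb.2, a cathepsin S gene, the mammalian counterpart of which serves antigen presentation. It had 5.60, 8.24 and 3.88 CPM in exercised Gr mutants, 26.2, 34.9 and 3.79 in non-exercised Gr mutants, 5.17, 3.30 and 7.73 in exercised wild-type fish and 4.77, 1.54 and 6.53 in non-exercised wild-type fish. Its neighbour ctssb.1 had 2.31, 3.30 and 9.29 CPM in exercised Gr mutants, 12.4, 27.6 and 1.2 in non-exercised Gr mutants, 7.79, 2.24 and 19.8 in exercised wild-type fish and 2.89, 2.98 and 5.93 in non-exercised wild-type fish, and ctsk, a cathepsin K gene, had 15.7, 19.4 and 12.5 CPM in exercised Gr mutants, 25.5, 42.5 and 16.6 in non-exercised Gr mutants, 19.3, 10.9 and 31.4 in exercised wild-type fish and 13.4, 8.84 and 11.3 in non-exercised wild-type fish. The genes ctsk, ctssb.1 and ctssb.2 follow one another with no protein-coding gene between them in the RefSeq annotation of GRCz12tu, in which 39 of the 41 genes were matched by name. In ctsk all 3 non-exercised mutants exceeded all non-exercised wild-type fish, at a log2 fold change of 1.35 ± 0.37 (edgeR adjusted p = 0.158). The carboxypeptidase gene ctsa had 12.4, 12.5 and 13.6 CPM in exercised Gr mutants, 21.0, 26.0 and 12.01 in non-exercised Gr mutants, 10.7, 13.0 and 11.1 in exercised wild-type fish and 9.62, 12.2 and 12.3 in non-exercised wild-type fish, again highest in non-exercised mutant replicates 1 and 2. The sparse ctso, the gene of cathepsin O, had 4.53, 3.63 and 2.36 CPM in exercised Gr mutants, 3.37, 2.66 and 1.48 in non-exercised Gr mutants, 3.33, 3.21 and 2.03 in exercised wild-type fish and 2.3, 2.88 and 2.08 in non-exercised wild-type fish, with overlap between all groups, and levels of ctsc were 26.1 to 82.3 CPM over the 12 libraries.

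Without exercise, 0 of 39 genes tested passed the threshold between Gr mutants and wild-type fish, against 0.233% of all 15011 genes (edgeR). At an unadjusted p under 0.05, 7 were higher and 1, lamp1, was lower, against 9.91% and 7.34% of all genes. DESeq2 called 3, namely atp6v1ab, ctsk and ctssb.2, among 726 genes it called in all, against 35 in all by edgeR. The genes atp6v1c1b and ctskl did not reach the minimum here. The median log2 fold change was 0.18, against 0.05 over all genes, and 29 genes were higher in mutants, against 53.6% of all genes. Groups did not overlap in 8 genes, against 22.0% of all genes. Replicates 1 and 2 of the mutants, with the most myeloid marker reads, both exceeded the other 10 libraries in 10 of the 41 genes (24.4%), against 6.33% of all genes past the minimum. Among these were ctsa, ctsba, ctsc, ctsh and ctssb.2, and the pump genes atp6v0ca, atp6v1ab and atp6ap2. Without mutant replicate 3 the comparison called 4 of the members, which were atp6v1ab, ctsk, ctssb.1 and ctssb.2. Calls over all genes then rose from 35 to 544 (edgeR). Myeloid markers were higher in these mutants in 30 of 30 genes tested, with a median log2 fold change of 2.08, 26 at an unadjusted p under 0.05, 0 called by edgeR and 16 by DESeq2. Fibroblast and connective tissue markers were higher in 11 of 11, 1 of them called by edgeR and 4 by DESeq2. The part of these markers in the higher lysosomal genes was not tested.

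**Figure D4:**
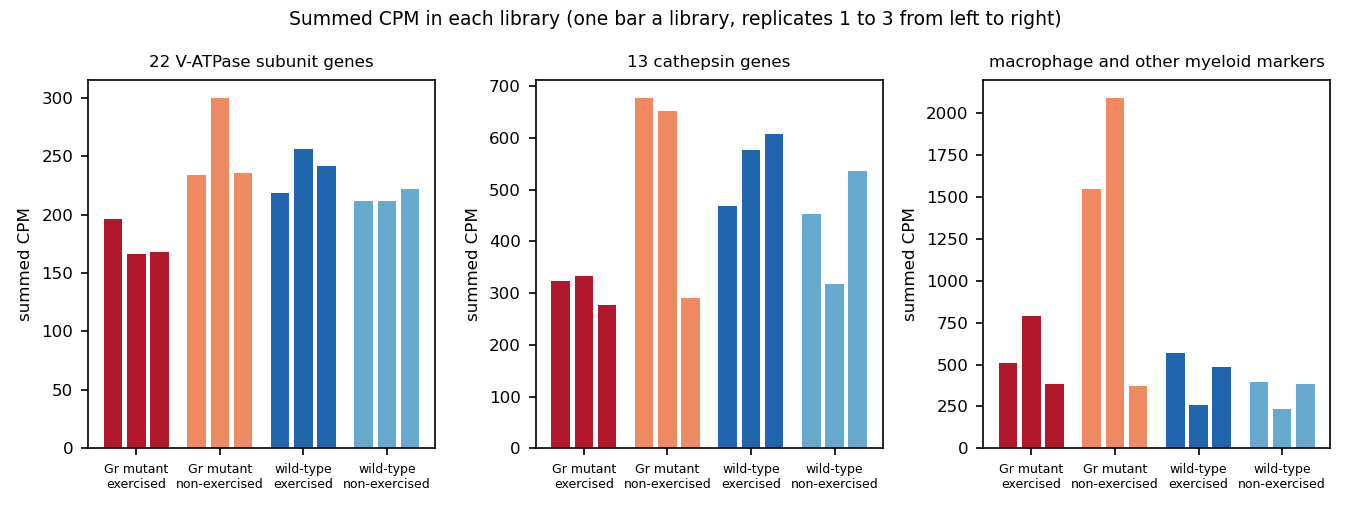
Summed CPM of the 22 V-ATPase subunit and accessory genes, the 13 cathepsin genes and the myeloid markers, one bar a library. Cathepsins stood at 678 and 652 CPM in replicates 1 and 2 of the non-exercised Gr mutants and at 291 CPM in replicate 3, and myeloid markers were high in the same 2 libraries. V-ATPase sums were lowest in exercised Gr mutants, at 166 to 196 CPM.

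Exercise was compared with non-exercise within each genotype. In wild-type fish 0 of 41 genes passed the threshold, against 0.37% of all 14597 genes (edgeR). DESeq2 called 0 of the 41 too, and 395 genes in all. At an unadjusted p under 0.05, 5 were higher in exercised fish (atp6v1c1b, ctsf, atp6v1g1, atp6v1ba and ctsk) and 0 lower, against 7.32% and 6.58% of all genes. Of the 5, atp6v1c1b passed the minimum here only through the exercised libraries, so its difference was fixed by the minimum. Log2 fold changes were above 0 in 35 of 41 genes, against 52.3% of all genes, with a median of 0.21 against 0.03 over all genes. All 13 cathepsins were among the 35. Among the markers, those of fibroblasts and connective tissue were higher with exercise in 10 of 11 genes, 4 of them called by edgeR and 9 by DESeq2, at a sum of 3865 to 4957 CPM in exercised and 1410 to 1862 CPM in non-exercised wild-type fish. Erythrocyte markers were higher in 11 of 11, 6 of them at an unadjusted p under 0.05, and myeloid markers in 27 of 30, 1 of them at an unadjusted p under 0.05. The part of these markers in the lysosomal values was not tested. In Gr mutants 0 of 39 genes passed, as did 0.0% of all 14584 genes (edgeR). DESeq2 called 2, atp6v0ca and atp6v1ba, among 105 genes it called in all. There 36 of 39 genes were lower with exercise, against 51.7% of all genes. At an unadjusted p under 0.05, 9 were lower and 0 higher, against 5.66% and 4.88% of all genes, and the median was -0.53 against -0.02 over all genes. The lowest adjusted p was 0.352 (edgeR). Myeloid markers were lower in exercised mutants in 28 of 29 genes tested, 17 at an unadjusted p under 0.05, and slow muscle markers in 11 of 11, 3 of them at that p, while those of fibroblasts and connective tissue were higher in 11 of 11, 1 of them at that p. Their part was not tested. The pairwise comparisons share libraries with each other, and their values stand side by side without a test of overlap.

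Over both genotypes, exercise called 0 of 41 genes, against 1.24% of all 16056 genes (edgeR). At an unadjusted p under 0.05, 2 were higher (ctsf and ctskl) and 1 lower (atp6v0ca), against 7.79% and 7.32% of all genes. Because ctskl passed the minimum mainly through the exercised wild-type libraries, the minimum favoured its direction and its value is a description. Of the 41 genes, 29 were lower with exercise and 12 higher, with a median log2 fold change of -0.18 against -0.01 over all genes. DESeq2 called 0 of the 41, and 776 genes in all. The interaction asks whether the exercise difference itself differed between genotypes. It called 0 of 41 genes and 0.0% of all genes (edgeR). DESeq2 called atp6v0ca and atp6v1ba, among 32 genes it called in all. Interaction values were below 0, meaning a lower exercise difference in mutants, in 37 of 41 genes, against 52.2% of all genes, with a median of -0.65 against -0.03 over all genes. At an unadjusted p under 0.05 stood 14 genes below 0 and 0 above, against 5.08% and 3.31% of all genes. The lowest adjusted p was 0.49 (edgeR). Myeloid markers had interaction values below 0 in 30 of 30 genes, at a median of -1.96, 16 of them at an unadjusted p under 0.05, and erythrocyte markers in 11 of 11, 4 of them at an unadjusted p under 0.05, with 0 of either list called by edgeR or DESeq2. Their part in the lysosomal values was not tested. Leaving out non-exercised Gr mutant replicates 1 and 2, a choice that itself raises these values where both libraries are high, leaves 1 fish in that group, which is then assumed to vary like the other groups. In that fit 28 of 41 genes were below 0, at a median of -0.34 against 0.02 over all genes.

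Transcription of many lysosomal genes is driven in mammals by TFEB and its relatives of the MiT/TFE family. Of 5 such factors tested over both exercise levels, 4 had a log2 fold change below 0 in Gr mutants and 1 was called, against 4.63% of all genes called lower. The gene called was tfeb, with 24.9, 12.9 and 24.1 CPM in exercised Gr mutants, 7.45, 22.9 and 17.5 in non-exercised Gr mutants, 30.4, 36.1 and 35.6 in exercised wild-type fish and 36.4, 47.8 and 37.0 in non-exercised wild-type fish. Every mutant library lay below every wild-type library, at a log2 fold change of -1.03 ± 0.26 (edgeR adjusted p = 0.0316). The call held in 8 of 12 omissions of one library. The tfe3b gene had a log2 fold change of -0.66 ± 0.28 without passing (edgeR adjusted p = 0.163). Whether tfeb had a part in the lower members was not tested.

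Over both exercise levels, other lysosomal genes did not share one direction. Of 52 hydrolase genes outside the cathepsins tested over both exercise levels, 4 rose and 1 fell in Gr mutants, where 3.3% of all genes were called higher and 4.63% lower, with a median log2 fold change of 0.23 against 0.06 over all genes. The hexosaminidase genes hexb and hexa rose by 1.11 ± 0.23 (edgeR adjusted p = 0.0127) and 0.77 ± 0.19 (edgeR adjusted p = 0.0274) on the log2 scale. For hexb the levels were 13.4, 16.8 and 10.95 CPM in exercised Gr mutants, 17.8, 21.1 and 12.4 in non-exercised Gr mutants, 8.64, 8.55 and 9.15 in exercised wild-type fish and 7.40, 4.01 and 5.82 in non-exercised wild-type fish, with all mutants above all wild-type fish. The fucosidase gene fuca1.2 also rose without overlap, by 0.82 ± 0.18 (edgeR adjusted p = 0.0174). The acid phosphatase gene acp5a was counted among the 4, at a log2 fold change of 2.34 with overlap. It passed the minimum only through mutant libraries, so it had to differ and its fold change is a description. Levels of acp5a were 0.289 to 5.68 CPM in mutants and 0.103 to 0.675 CPM in wild-type fish. The lysosomal phospholipase gene pla2g15 fell (-1.06 ± 0.23, edgeR adjusted p = 0.0158). Calls of hexb, fuca1.2 and pla2g15 held in 12 of 12 omissions of one library, and that of hexa in 6. DESeq2 called 6 of the 52 higher and 2 lower, among 2128 genes it called in all. Between exercised mutants and exercised wild-type fish, hydrolases were higher in 26 and lower in 25 of 51 genes tested. There edgeR called 0 of them, and DESeq2 1 higher and 1 lower among 944 genes in all.

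On the mTORC1 platform, the complex that senses nutrients at the lysosomal surface together with the V-ATPase, 2 of 15 genes tested fell in Gr mutants, against 4.63% of all genes, and 0 rose by edgeR or DESeq2. These were rragd, a Rag GTPase gene (-0.79 ± 0.19, edgeR adjusted p = 0.0244), and lamtor1, which anchors the complex (-0.71 ± 0.19, edgeR adjusted p = 0.0372). Of 39 genes for lysosomal membrane, sorting and activator proteins 1 fell by edgeR, a share below the 4.63% of all genes, which was cln8 (-0.97 ± 0.24, edgeR adjusted p = 0.0295), an ER protein of lysosomal enzyme export. None rose by edgeR, while DESeq2 called 2 higher and 1 lower. Of 12 omissions of one library the call of rragd held in 8, that of lamtor1 in 5 and that of cln8 in 5. Of 13 further V-ATPase genes outside the name rule and 4 cystatin genes, inhibitors of cathepsins, 0 were called over both exercise levels by edgeR or DESeq2. At an unadjusted p under 0.05, 1 V-ATPase gene stood higher and 1 lower, and 1 cystatin gene higher and 0 lower. With exercise, membrane, sorting and activator genes were lower in mutants in 28 of 36 tested and mTORC1 platform genes in 12 of 15. The further V-ATPase genes were lower there in 8 of 13 and cystatin genes in 1 of 3. Of all genes 50.6% were lower, and 0 genes of these lists were called there by edgeR or DESeq2.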

How the data were processed

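The deposited tables held whole-number counts of reads per gene in 12 white muscle libraries, with 6 libraries in each of 4 tables. According to the methods and the submitters' processing notes, the authors mapped reads (50 nucleotides, single-end) to GRCz10 (Ensembl release 80) with TopHat2 2.0.5, removed secondary alignments with SAMtools 0.1.18 and counted with HTSeq 0.5.3p9. Whether counting used strand was not given in the sources used here, so reads of genes that overlap on opposite strands may not have been told apart. Reads of near-identical genes could be shared whatever the strand setting. The tables also held the authors' own comparisons (DESeq), which were not used.

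Groups came from the sample titles. Counts were tested with edgeR 4.0.16 (TMM scaling, quasi-likelihood F-test, two-sided) on genes that reached 10 counts in 3 or more fitted libraries, with Benjamini-Hochberg adjustment over all genes tested and a threshold of 0.05. Pairwise comparisons were fitted on 6 libraries. Additive fits (genotype and exercise) and the interaction were fitted on all 12. Levels are CPM with TMM factors over the 12 libraries, and errors of log2 fold changes are standard errors derived from the F statistic. Alternatives were DESeq2 1.42.0, its size factors, no filter on low counts, the replicate number as a block, a fit over all 12 libraries and the omission of each library. The scripts were tested on simulated data. The genes, the name lists of other lysosomal genes and cell markers, and the tests were chosen with earlier results of these data known. Values in every library are given for genes past the threshold, for the 3 genes with the lowest p in each direction of the pairwise and additive comparisons, for the most read gene of each role, and for paralogues of these. No gene or promoter sequence was analysed here, and a planned search for promoter motifs was not run. The RefSeq table of GRCz12tu served for gene order only, since its build differs from that of the counts.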

Additional observations from a re-analysis of the deposited data

How the results depend on the processing

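In exercised Gr mutants against exercised wild-type fish 5 members were called. The replicate number as a block called 0 members and 223 genes in all. A fit over all 12 libraries called 0 members and 267 genes in all, and omission of single libraries gave 0 to 2 members. DESeq2 called 6 there, adding ctsd and ctsh and giving no adjusted p for ctskl. It called 944 genes in all, against 426 by edgeR. Over both exercise levels omissions gave 2 to 5 calls, against 4 with all libraries and 4 with the block. In exercised against non-exercised Gr mutants DESeq2 called 2, with 105 genes in all, and omissions gave 0 to 1, with 0 to 58 in all. Between the genotypes without exercise DESeq2 called 3, with 726 in all, and omissions gave 0 to 4, with 0 to 544 in all. For the interaction DESeq2 called 2, with 32 in all. With all libraries edgeR called 0 members in each of these comparisons. The cause was not tested. Non-exercised Gr mutant replicates 1 and 2 were also left out together, a setting chosen after seeing the data. The interaction values of 9 of the 41 genes then turned from below to above 0. Among them were ctssb.1 (0.70), ctssb.2 (0.31), LAMP1 (2 of 2) (0.52), mcoln1b (0.77) and atp6v1aa (0.35). This omission leaves 1 fish in that group and itself raises the values of genes high in both libraries. The turns are therefore a description, and they were not counted over all genes. The 63 log2 fold changes of members at an unadjusted p under 0.05 in the main edgeR fits, 14 of them for the interaction, were recomputed under the alternatives. Of the recomputed values 770 kept direction and side of the threshold, 49 lost the call, 16 gained one and 2 reversed. Only the 5 calls with exercise and the 4 over both exercise levels had a call to lose. Most of the 770 were therefore values not called in the main fits either, and do not measure how well the calls held. Because the 63 were picked for a low p, these counts do not describe the other values of the members. With the replicate number as a block, the calls of tfeb, lamtor1 and cln8 over both exercise levels had adjusted p = 0.0559, 0.0675 and 0.0533 (edgeR). Replicate numbers did not pair the samples. Correlations of same-numbered libraries were -0.245 to 0.165 over 18 pairs, and 1 of 12 libraries correlated best with its own number. Genes with few reads, such as ctskl, mcoln1b and atp6v1c1b, were limited by depth, and groups of 3 fish limited every call.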
